A study of Nicotiana tabacum with 16 samples.

Results

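Tobacco roots carrying the nic1 and nic2 alleles held a small group of gene models whose RNA was lower in every library than in every library without those alleles. Of 63697 gene models in the deposited count table, 38 made up this group. They were picked by the measured values themselves. Counts were divided by the library total and expressed per 1000000 counts (CPM), and gene models with a mean of 5 CPM or more over the K326 and myc2a libraries were kept. Gene models of ID group 7 with serial numbers 11900 to 13900 and of ID group 19 with serial numbers 29500 to 32500 were left out, which left 27438 eligible. The gap is the lowest log2(CPM + 1) of the 9 K326 and myc2a libraries minus the highest of the 7 nic1/nic2 and nic1/nic2/myc2a libraries. The rule allowed the 100 largest positive gaps, and 38 were positive (0.138% of those eligible). Every difference between libraries with and without nic1 and nic2 was therefore fixed by the choice and is given as a description, with no test.

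The 16 libraries were made from total RNA of Nicotiana tabacum roots, collected 18 h after topping of greenhouse plants. The groups were the flue-cured cultivar K326 (n = 4), K326 with recessive alleles at Nic1 and Nic2 (nic1/nic2, n = 3), K326 with the recessive myc2a allele (myc2a, n = 5), and K326 with all of these alleles (nic1/nic2/myc2a, n = 4). All of these genotypes, the K326 controls included, shared the K326 background, and all plants were topped. The labels speak of near isogenic material but not of how many independent lines or plants stand behind a genotype, so p-values measure only the spread between these libraries, which may be technical.

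Nicotine is made in tobacco roots and carried to the leaves, and removing the shoot apex, called topping, raises its synthesis through jasmonate signalling. The Nic loci set the nicotine content of the plant, and clustered genes of ERF transcription factors lie at Nic2. MYC2a is a bHLH transcription factor of the jasmonate pathway, and factors of both families bind promoters of nicotine synthesis genes. The table names gene models only by an identifier, such as Ntab08g023550-1.1, which gives an ID group (here 8) and then a serial. Of these identifiers, 0 matched the reference table of gene names, so no member is given a function, neither the genes at the Nic and Myc2a loci nor root markers were available as a check of the labels.

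Total counts ran from 32.2 to 71.8 M per library. K326 replicate 2 was the deepest, with 71.8 M against 40.9 M or less in the others, and it also stood apart in the levels of these gene models, as described below. The library nic1/nic2 replicate 3 had the fewest detected gene models (41283 against 42797 to 45675). In bulk RNA, fewer cells of a type and less RNA per cell cannot be told apart. CPM values are not divided by gene length, so levels are compared between genotypes for the same gene model and not between gene models.

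Together the 38 gene models took up 0.908 ± 0.541% of all counts in K326 (SD, n = 4) and 0.489 ± 0.0797% in myc2a (n = 5). In nic1/nic2 their share was 0.181 ± 0.0137% (n = 3) and in nic1/nic2/myc2a 0.179 ± 0.0244% (n = 4). Their summed level by library was 7018, 17121, 6797 and 5380 CPM in K326 replicates 1 to 4. In myc2a it was 3811, 4551, 5498, 4782 and 5827 CPM. It was 1655, 1873 and 1909 CPM in nic1/nic2 and 2091, 1544, 1877 and 1651 CPM in nic1/nic2/myc2a. K326 replicate 2 was far above the rest, and the myc2a libraries lay between most K326 libraries and all libraries with nic1 and nic2. The 38 gene models were spread over 18 ID groups, with at most 4 in one of them (ID group 12), and 24 of them exceeded 100 CPM in the K326 mean.

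**Figure D1:**
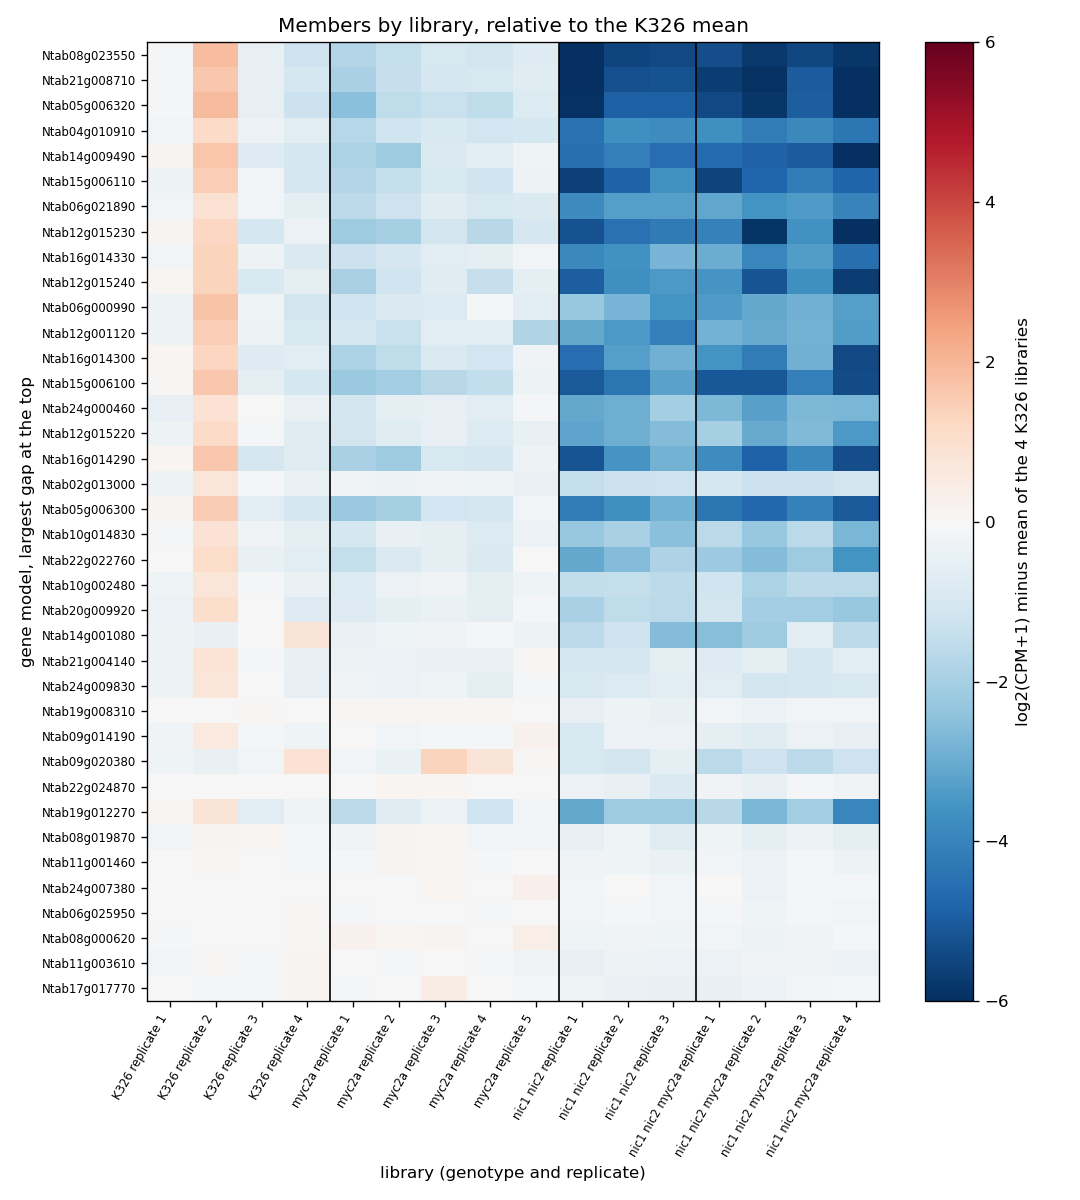
Level of the 38 gene models (rows, largest gap at the top) in the 16 libraries (columns), as log2(CPM + 1) minus the mean of the 4 K326 libraries; colours span -6 to 6 and lines separate the genotypes. The upper rows are darkest blue in all 7 libraries with nic1 and nic2, paler blue in myc2a and red in K326 replicate 2, while the lowest rows differ little.

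The size of the separation varied widely among the members. A gap of 1 or more was reached by 12 gene models, a gap of 0.2 to under 1 by another 12, and 14 had a gap under 0.2. In the first 12, the log2 fold change of nic1/nic2 against K326 ran from -6.64 to -3.67 with a median of -4.79. The second 12 ran from -4.66 to -1.52 with a median of -2.78. The last 14 ran from -2.64 to -0.20 with a median of -0.57. Over all 43009 gene models tested the median was 0.00. In nic1/nic2 against K326, 22 of the 38 were over 4-fold lower, and in nic1/nic2/myc2a against myc2a 18 were.

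The members with the widest separation stood at a few CPM in every library with nic1 and nic2. Ntab08g023550-1.1, with a gap of 3.58, stood at 272, 1075, 208 and 125 CPM in K326 and at 87.6, 109.7, 149, 135 and 171 CPM in myc2a. In nic1/nic2 it was at 2.05, 5.55 and 6.00 CPM and in nic1/nic2/myc2a at 6.43, 4.30, 5.75 and 4.18 CPM. Its lowest library without nic1 and nic2 was 13.6-fold above its highest library with them. The fitted fold change was 99.7-fold between K326 and nic1/nic2 and 25.7-fold between myc2a and nic1/nic2/myc2a. Without K326 replicate 2 the first of these was 47.4-fold. That fold dropped by more than 1.5 times without this library in 14 of the 38 members, to 39.8-fold in Ntab21g008710-1.1 and 32.7-fold in Ntab05g006320-1.1 for example, and 22 members were over 4-fold lower with or without it.

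Ntab21g008710-1.1 had almost the same profile, with 244, 834, 192 and 130.3 CPM in K326 and 68.7, 103, 133, 137 and 163 CPM in myc2a. Its levels with nic1 and nic2 were 2.87, 5.98 and 6.28 CPM, and 4.23, 3.37, 7.31 and 2.49 CPM where myc2a was also present. Every library with these alleles was thus under 8 CPM, and none without them was under 60 CPM. Ntab05g006320-1.1 followed with 154, 624.9, 118 and 66.4 CPM in K326 and 28.1, 56.5, 66.1, 57.0 and 92.5 CPM in myc2a. It was at 1.72, 4.64 and 4.66 CPM in nic1/nic2 and at 2.86, 1.95, 4.50 and 1.45 CPM in nic1/nic2/myc2a. In this gene model the myc2a libraries overlapped with K326 replicate 4 alone.

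Other members had a large difference and a clear residual level. Ntab04g010910-1.1 was at 603, 1521, 545 and 439.7 CPM in K326, at 206, 301, 361, 310.4 and 334 CPM in myc2a, at 30.2, 51.8 and 48.4 CPM in nic1/nic2 and at 51.7, 36.6, 46.1 and 32.9 CPM in nic1/nic2/myc2a. Ntab06g021890-1.1 was at 740.1, 1555, 737 and 565 CPM in K326, at 284, 352, 497, 432 and 456 CPM in myc2a, at 58.5, 83.9 and 84.3 CPM in nic1/nic2 and at 96.2, 68.8, 77.6 and 51.1 CPM in nic1/nic2/myc2a. For both, the 5 myc2a libraries lay below all 4 K326 libraries and above all others, so the levels formed 3 steps. These were the 2 members of 38 in which every myc2a library was below every K326 library, which 1.09% of eligible gene models showed.

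Ntab12g001120-1.1 was at 554, 1936, 562 and 367 CPM in K326 and at 334, 271, 421, 424 and 195 CPM in myc2a, where the genotypes overlapped. With nic1 and nic2 it was at 80.3, 62.2 and 38.6 CPM, and with all alleles at 95.4, 82.7, 95.02 and 65.9 CPM. Ntab24g000460-1.1 was at 467, 1189, 664 and 494 CPM in K326, at 309, 445, 467, 402 and 594 CPM in myc2a, at 76.9, 86.0 and 159 CPM in nic1/nic2 and at 98.6, 67.0, 101 and 95.6 CPM in nic1/nic2/myc2a. Ntab10g002480-1.1 had 1101 ± 429 CPM in K326 (SD, n = 4), 786 ± 128 in myc2a (n = 5), 375 ± 21.8 CPM in nic1/nic2 (n = 3) and 361 ± 70.9 in nic1/nic2/myc2a (n = 4). It was 3.12-fold lower in nic1/nic2 than in K326.

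**Figure D2:**
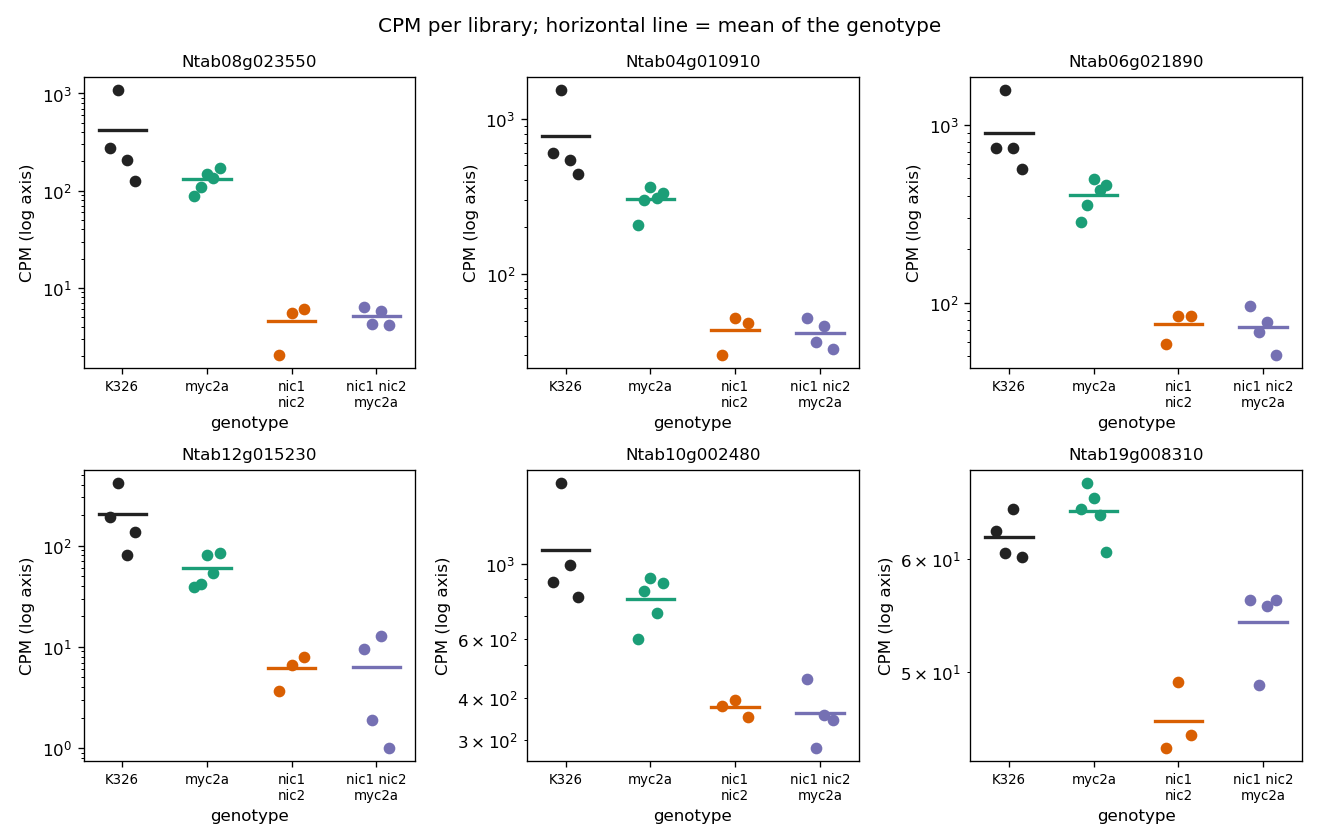
CPM (log axis) of 6 members in every library, by genotype, with a line at the genotype mean. Ntab04g010910-1.1 and Ntab06g021890-1.1 form 3 steps, K326 replicate 2 is the top point of 5 of the 6 panels, and Ntab19g008310-1.1 spans a narrow range (44.3 to 67.7 CPM).

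Of the other members with a gap of 1 or more, Ntab14g009490-1.1 was in single digits with nic1 and nic2. It stood at 109 ± 104 CPM in K326 (SD, n = 4), 40.2 ± 21.1 in myc2a (n = 5), 2.92 ± 0.741 in nic1/nic2 (n = 3) and 1.502 ± 0.842 in nic1/nic2/myc2a (n = 4). Ntab15g006110-1.1 was at 307 ± 258, 119 ± 48.6, 10.1 ± 7.60 and 8.15 ± 3.35 CPM in the same order. Ntab16g014330-1.1 was at 256 ± 195, 132 ± 41.2, 20.1 ± 9.01 and 17.0 ± 7.77 CPM. Ntab06g000990-1.1 was a weakly expressed example, with 18.0 ± 18.2 and 7.91 ± 2.88 CPM without the alleles and 1.08 ± 0.889 and 0.611 ± 0.258 CPM with them. The large SD in K326 came with 1 library, replicate 2, in each of these 4 gene models. No member was without counts in every library of a genotype.

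Members lay side by side in the table in 4 places, which together held 10 of the 38. All 10 were over 4-fold lower in nic1/nic2 than in K326. No source used here states that serial numbers follow chromosome positions. Neighbours may be near-identical copies that share reads, a point not analysed here, and their separate values are uncertain for that reason.

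The longest unbroken run was Ntab12g015220-1.1, Ntab12g015230-1.1 and Ntab12g015240-1.1. The first was at 152, 423, 172 and 112 CPM in K326, at 87.9, 115, 133, 106 and 138 CPM in myc2a, at 19.8, 24.2 and 29.8 CPM in nic1/nic2 and at 46.8, 22.1, 28.9 and 16.2 CPM in nic1/nic2/myc2a. The second stood lower still with the alleles, going from 189, 411, 81.3 and 136 CPM in K326 and 38.7, 42.0, 79.8, 53.7 and 84.5 CPM in myc2a to 3.66, 6.67 and 8.02 CPM and to 9.47, 1.89, 12.8 and 1.01 CPM. The third ran alongside the second, with 95.6, 221, 45.1 and 58.9 CPM in K326, 21.7, 37.5, 52.5, 32.4 and 58.9 CPM in myc2a, 1.81, 5.84 and 7.18 CPM in nic1/nic2 and 6.52, 1.45, 5.94 and 0.712 CPM in nic1/nic2/myc2a. In the second and the third, replicates 1 and 3 of nic1/nic2/myc2a were well above replicates 2 and 4. The gene models on either side, Ntab12g015210-1.1 and Ntab12g015250-1.1, had a mean of 0 CPM in K326 and in nic1/nic2.

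In ID group 16, Ntab16g014290-1.1, Ntab16g014300-1.1 and Ntab16g014330-1.1 were 19.9-fold, 14.4-fold and 13.7-fold lower in nic1/nic2 than in K326, and the 2 gene models between them never exceeded 0.746 CPM. Ntab15g006100-1.1 and Ntab15g006110-1.1, 25.3-fold and 33.2-fold lower, were direct neighbours, and the gene model before them, Ntab15g006090-1.1, was at 110.4 CPM in K326 and 116 CPM in nic1/nic2 on average. Ntab05g006300-1.1 and Ntab05g006320-1.1 were separated by 1 gene model without counts. Apart from these places, 28 members had no other member within 30 serial numbers. In the ranges left out by the rule, 4 further gene models had a positive gap. They were Ntab07g012700-1.1 (gap 1.26) and Ntab19g031560-1.1, Ntab19g031570-1.1 and Ntab19g031580-1.1 (0.33, 0.34 and 0.33).

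The difference made by nic1 and nic2 could be read in 2 backgrounds that share no library, K326 and myc2a. It was larger in the K326 background for 34 of the 38 members, and for 30 without K326 replicate 2. The opposite direction, a log2 fold change with nic1 and nic2 that was lower in the myc2a background, was found in 4 of the 38. It was found in 47.7% of all eligible gene models. The median log2 fold change was -2.69 for nic1/nic2 against K326 and -1.95 for nic1/nic2/myc2a against myc2a. Ntab04g010910-1.1 was 19.1-fold lower in the first background and 7.37-fold lower in the second, and Ntab12g001120-1.1 14.9-fold and 4.00-fold. Without K326 replicate 2 the first value was 12.9-fold for Ntab04g010910-1.1 and 8.57-fold for Ntab12g001120-1.1. Ntab05g006300-1.1 was among the 4 that went the other way, with 21.5-fold and 26.8-fold. Ntab09g020380-1.1 was another, with 2.15-fold and 4.20-fold.

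**Figure D3:**
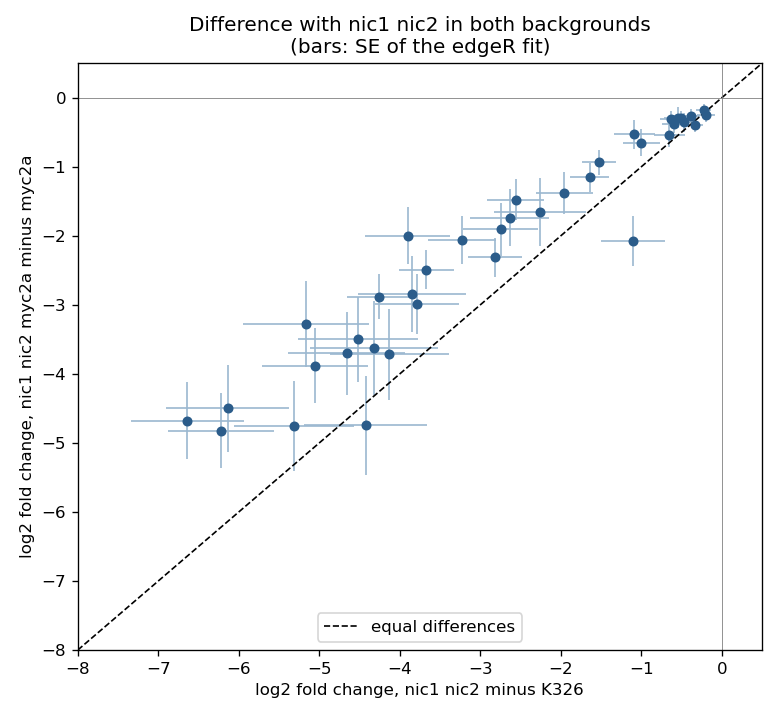
Log2 fold change with nic1 and nic2 in the K326 background (x) and in the myc2a background (y) for the 38 members; bars are the SE of the edgeR fit and the dashed line marks equal differences. Most points, 34 of 38, lie above the line, where the difference is smaller in the myc2a background.

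Whether that difference between backgrounds exceeded the spread was tested with the interaction term, whose sign the rule did not fix. Its size was limited by the rule, which held back members low in myc2a or high in either genotype with nic1 and nic2. edgeR's quasi-likelihood test called 0 of the 38 at an adjusted p of 0.05, beside 0.235% of the 43009 gene models tested. DESeq2 and limma-voom also called 0, beside 0.671% and 0.195% of the gene models each tested. At an unadjusted p under 0.05 in edgeR there were 8, all positive, beside 5.28% of all gene models in that direction and 4.59% in the other. These estimates use the same K326 and myc2a libraries as the comparison of myc2a with K326. The 3 with the smallest p were Ntab12g001120-1.1, whose log2 interaction was 1.90 with an SE of 0.60 (edgeR adjusted p = 0.349), Ntab04g010910-1.1, with 1.38 ± 0.45 (edgeR adjusted p = 0.371), and Ntab06g021890-1.1, with 1.18 ± 0.39 (edgeR adjusted p = 0.377). The median interaction over the members was 0.58, against 0.00 over all gene models tested. Without K326 replicate 2 it was 0.20, with 30 of 38 positive and 3 at an unadjusted p under 0.05. The share of all gene models in that fit is not given here. The values of the 3 named members were then 1.101, 0.81 and 0.77.

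The effect of myc2a alone was the next comparison, since the rule put K326 and myc2a on the same side. Most members were lower in myc2a than in K326. The median log2 fold change was -0.82 over the 38, against 0.00 over all gene models tested. A negative value was found in 32, beside 49.0% of all eligible gene models. For members with a gap of 1 or more the median was -1.41 and all 12 were negative. For those with a gap of 0.2 to under 1 it was -0.83, with 12 of 12 negative, and for those under 0.2 it was -0.02, with 8 of 14 negative. The rule required each myc2a library to exceed all 7 libraries with nic1 and nic2, so members low in myc2a were held back. That the fall in myc2a was smaller than with nic1 and nic2 was therefore fixed by the choice.

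No single member passed the threshold in edgeR. The quasi-likelihood test called 0 of 38, beside 0.17% of the 43009 gene models tested, although 24 had an unadjusted p under 0.05, all lower, beside 3.04% of all gene models in that direction and 2.16% in the other. limma-voom called 0 and DESeq2 called 2, beside 0.226% and 0.57% of the gene models each tested. The 2 were Ntab04g010910-1.1, with a log2 difference of -1.39 ± 0.29 (SE, edgeR adjusted p = 0.0804, DESeq2 adjusted p = 0.000838, range over 24 alternatives 0.000838 to 0.301), and Ntab06g021890-1.1, at -1.18 ± 0.25 (edgeR adjusted p = 0.0919, DESeq2 adjusted p = 0.00176, range 0.00176 to 0.396). Ntab05g006320-1.1 had the lowest value, -2.05 ± 0.51 (edgeR adjusted p = 0.198). Ntab08g023550-1.1, the member with the largest gap, had -1.72 ± 0.46 (edgeR adjusted p = 0.256).

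This comparison depended on K326 replicate 2. Without it the log2 fold change was -0.65 in Ntab08g023550-1.1, -0.94 in Ntab05g006320-1.1, -0.82 in Ntab04g010910-1.1 and -0.77 in Ntab06g021890-1.1. The median over the members was -0.33, 30 of 38 were negative, and 8 had an unadjusted edgeR p under 0.05. In that fit edgeR called 0 of the 38, and the share of all gene models is not given here. In Ntab08g023550-1.1 the myc2a mean was 31.1% of the K326 mean with all libraries and 64.7% without that one. In Ntab04g010910-1.1 it was 38.9% and 57.1%, and in Ntab06g021890-1.1 44.9% and 59.4%. In Ntab02g013000-1.1, at 62.2, 128, 72.02 and 58.2 CPM in K326 and at 64.6, 61.7, 65.1, 64.0 and 58.2 CPM in myc2a, the share moved from 78.4 to 97.8%.

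With nic1 and nic2 already present, adding myc2a came with no call among the members. edgeR, DESeq2 and limma-voom each called 0 of 38, beside 0.405%, 1.43% and 0.344% of the gene models each tested. At an unadjusted edgeR p under 0.05 there were 3, of which 1 was lower and 2 higher, beside 6.23% and 6.93% of all gene models in each direction. The median log2 fold change was 0.00, and 19 members were positive and 19 negative, beside 48.1% negative among all eligible gene models. The rule took the highest library of both genotypes, so a member high in either was held back. Without nic1/nic2 replicate 3, 0 members had an unadjusted edgeR p under 0.05 in either direction, and the share of all gene models in that fit is not given here.

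Ntab05g006300-1.1 had the lowest value, -1.91 ± 0.77 (SE; edgeR adjusted p = 0.313), with 0.937, 1.77 and 4.07 CPM in nic1/nic2 and 0.715, 0.348, 1.16 and 0.0890 CPM in nic1/nic2/myc2a, which overlapped. Ntab19g008310-1.1 was slightly higher in nic1/nic2/myc2a by 0.27 ± 0.10 (edgeR adjusted p = 0.296), with 44.3, 49.3 and 45.2 CPM in nic1/nic2 and 56.2, 49.0, 55.6 and 56.1 CPM in nic1/nic2/myc2a. Ntab22g024870-1.1 had 0.35 ± 0.14 (edgeR adjusted p = 0.298). For Ntab04g010910-1.1 the difference was -0.01 ± 0.34 and for Ntab06g021890-1.1 -0.00 ± 0.29, close to 0 beside their SE.

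**Figure D4:**
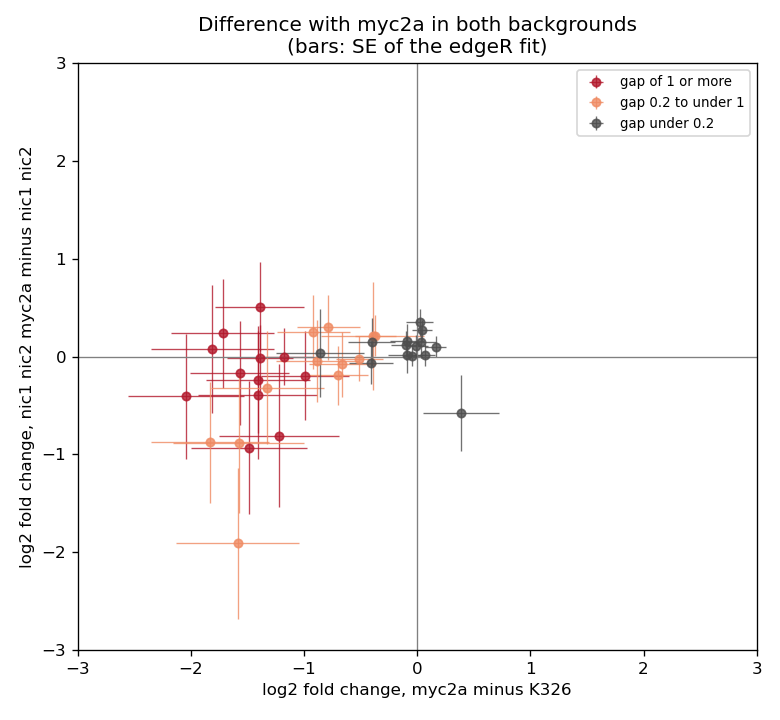
Log2 fold change with myc2a against K326 (x) and with myc2a added to nic1/nic2 (y) for the 38 members, coloured by gap; bars are the SE of the edgeR fit. Members with a gap of 1 or more lie between -2.05 and -0.99 on x and scatter around 0 on y, between -0.93 and 0.51.

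Libraries of the same genotype differed from each other in many of these gene models in a similar order. The rule compares single lowest and highest libraries, so these deviations also bear on which gene models are members, and they are given as a description. Deviations were taken in log2(CPM + 1) from the mean of the genotype. K326 replicate 2 was the highest K326 library for 29 of the 38 members, beside 21.8% of all eligible gene models, and for 12 of 12 with a gap of 1 or more. In those 12 its median deviation was 1.49, that of K326 replicate 4 was -0.96, that of myc2a replicate 1 was -0.55 and that of myc2a replicate 5 was 0.53. In nic1/nic2 the median deviations were -0.52, 0.22 and 0.34, and in nic1/nic2/myc2a 0.30, -0.18, 0.30 and -0.50. Over all eligible gene models the median deviation of a library stayed between -0.03 and 0.09.

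**Figure D5:**
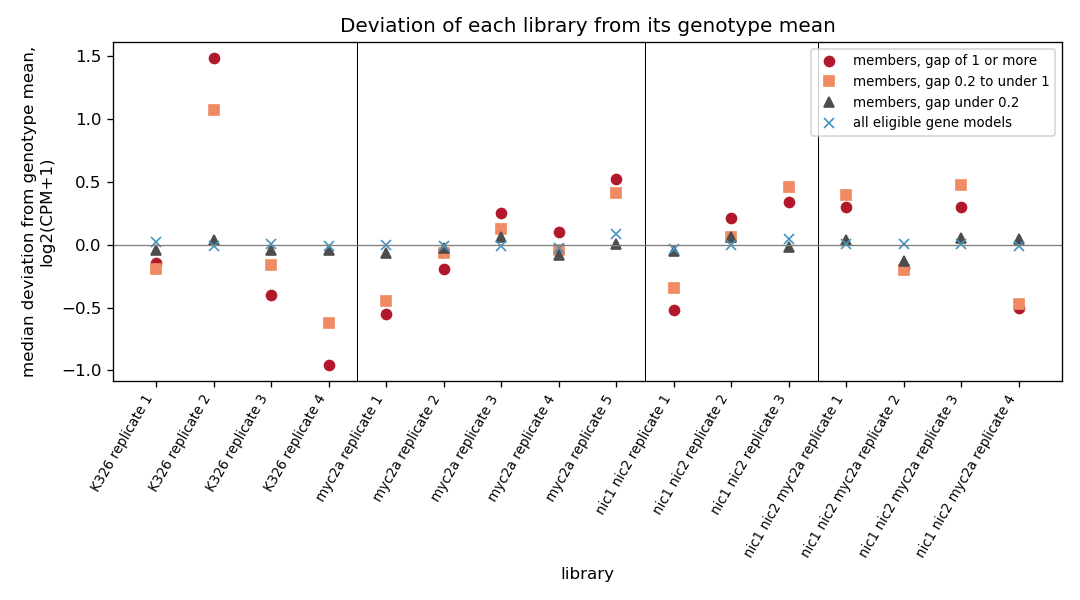
Median deviation of each library from the mean of its genotype, in log2(CPM + 1), for members in 3 ranges of gap and for all 27438 eligible gene models. The medians of members with a gap of 1 or more (1.49) and of 0.2 to under 1 (1.07) are farthest from 0 in K326 replicate 2, and they have opposite signs in myc2a replicate 4 (0.11 and -0.04). The medians of members with a gap under 0.2 and of the eligible gene models stay near 0.

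The members with wide gaps also spread more within a genotype. The median SD of log2(CPM + 1) between K326 libraries was 1.05 for a gap of 1 or more, 0.77 for 0.2 to under 1 and 0.14 for under 0.2, against 0.17 over all eligible gene models. In nic1/nic2/myc2a the values were 0.52, 0.55, 0.15 and 0.19.

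As a description, each member's deviations over the 16 libraries were correlated with the mean deviation of the 12 members with a gap of 1 or more, itself left out. These points share libraries and their depth. The correlation was 0.6 or more for 26 of 38 members (68.4%), with 11 of 12, 11 of 12 and 4 of 14 by falling gap, and for 4.09% of the other eligible gene models. Without K326 replicate 2 it was so for 18 of 38 (47.4%), with 9 of 12, 8 of 12 and 1 of 14, and for 10.5% of the others. Ntab12g001120-1.1 went from 0.60 to 0.01 without that library, Ntab02g013000-1.1 from 0.74 to 0.11 and Ntab06g000990-1.1 from 0.65 to 0.13. Ntab21g008710-1.1 stayed at 0.98 and 0.96.

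The closest pair of members was Ntab21g008710-1.1 and Ntab05g006320-1.1, with r = 0.99 over the 16 libraries and 0.97 without K326 replicate 2. Ntab15g006100-1.1 and Ntab05g006300-1.1 followed with 0.97 and 0.95. Both pairs join different ID groups, and whether the gene models of a pair are near-identical copies that share reads was not analysed here either. Among neighbouring members, the 8 pairs had values from 0.78 to 0.95, the highest for Ntab12g015230-1.1 with Ntab12g015240-1.1. These pairs were chosen after their values were seen.

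The 14 members with gaps under 0.2 were of several kinds. Ntab19g012270-1.1 resembled the widely separated members, with 112, 177, 65.1 and 84.6 CPM in K326, 32.9, 62.4, 78.8, 44.1 and 90.8 CPM in myc2a, 11.3, 22.8 and 22.6 CPM in nic1/nic2 and 31.99, 14.5, 23.2 and 5.87 CPM in nic1/nic2/myc2a. Its gap of 0.04 came from myc2a replicate 1 and nic1/nic2/myc2a replicate 1, which nearly met, and its deviations followed the shared pattern (r = 0.77). Ntab09g020380-1.1 had another order of libraries, with 16.7, 14.4, 18.0 and 37.0 CPM in K326, 17.9, 15.1, 52.6, 35.5 and 21.2 CPM in myc2a, 9.70, 8.70 and 13.7 CPM in nic1/nic2 and 5.93, 7.87, 6.12 and 7.77 CPM in nic1/nic2/myc2a. K326 replicate 4 and myc2a replicate 3 were its highest libraries, and its r was -0.20.

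Most of the others were steady gene models with small differences. Ntab22g024870-1.1 had 57.3 ± 0.957 CPM in K326 (SD, n = 4), 59.0 ± 3.19 in myc2a (n = 5), 39.0 ± 7.39 in nic1/nic2 (n = 3) and 48.6 ± 4.65 in nic1/nic2/myc2a (n = 4). Ntab24g007380-1.1 differed by 1.15-fold between K326 and nic1/nic2 and Ntab06g025950-1.1 by 1.17-fold. Ntab08g000620-1.1, Ntab11g001460-1.1, Ntab11g003610-1.1, Ntab17g017770-1.1, Ntab08g019870-1.1, Ntab19g008310-1.1 and Ntab09g014190-1.1 were between 1.26-fold and 1.57-fold lower, and Ntab24g009830-1.1 and Ntab21g004140-1.1 were 2.00-fold and 2.12-fold lower. Less steady were Ntab24g009830-1.1, Ntab21g004140-1.1 and Ntab09g014190-1.1, where K326 replicate 2 was the highest library (616, 49.3 and 156 CPM). Without it they were 1.60-fold, 1.62-fold and 1.33-fold lower in nic1/nic2 than in K326. Ntab17g017770-1.1 was less steady in myc2a, with replicate 3 at 143 CPM and the other replicates at 95.7 to 105 CPM.

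At the threshold, Ntab17g017770-1.1 had a gap of 0.000989 and Ntab11g003610-1.1 one of 0.00439. Just outside, Ntab04g008600-1.1 had -0.00119, with its lowest library without the alleles at 71.1 CPM and its highest with them at 71.2 CPM, and Ntab24g009580-1.1 had -0.00343. On CPM after scaling with TMM, edgeR's trimmed mean method, Ntab17g017770-1.1, Ntab11g003610-1.1, Ntab08g019870-1.1 and Ntab19g008310-1.1 lost their positive gap, and the other 34 kept it.

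The remaining members with a gap of 0.2 to under 1 followed the shared pattern with 1 exception. Ntab10g014830-1.1, Ntab22g022760-1.1 and Ntab20g009920-1.1 were 5.90-fold, 6.72-fold and 3.88-fold lower in nic1/nic2 than in K326, with r from 0.83 to 0.90. Without K326 replicate 2 these folds were 4.43, 4.67 and 2.76, and r was 0.74, 0.89 and 0.64. Ntab14g001080-1.1 was the exception (r = -0.26), with 7.07, 6.45, 8.87 and 15.8 CPM in K326, 6.53, 7.46, 7.50, 8.13 and 7.22 CPM in myc2a, 2.39, 3.23 and 0.622 CPM in nic1/nic2 and 0.715, 1.25, 5.20 and 2.37 CPM in nic1/nic2/myc2a. Its highest K326 library was replicate 4.

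Among all eligible gene models, 17 were over 4-fold lower in both genotypes with nic1 and nic2 than in both without them, by the means of log2(CPM + 1), and all 17 were members. Read the other way, with the same minimum applied to the libraries with nic1 and nic2, 131 gene models had a positive gap upwards. On TMM-scaled CPM the numbers were 56 downwards and 76 upwards, so the balance of both directions depended on the scaling.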

How the data were processed

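The deposited table held a whole-number count per gene model and library for 16 root libraries. Per the submitters' processing notes, the authors used FastQC, HISAT2 2.1.0, SAMtools and bedtools. Build, annotation and counting settings are not given in the sources used here. Columns were assigned by name, with 0 unused, and those of nic1/nic2/myc2a by genotype letters in another order than the titles. Total counts per library were 32.2 to 71.8 M. Deeper libraries carry less counting error at low levels.

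Levels are CPM on column totals, as in the rule for members. Folds, SE and P-values come from edgeR 4.0.16 in R 4.3.3: filterByExpr (43009 gene models, all 38 members among them), TMM, 1 mean per genotype, quasi-likelihood test, 12 residual degrees of freedom, Benjamini-Hochberg over all gene models, threshold 0.05. DESeq2 1.42.0 and limma 3.58.1 were alternatives. The procedure was tested on simulated data.

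Members, comparisons and lists were chosen with earlier results of these data known. Named by rule were the 10 largest gaps, the 5 highest CPM, the 3 smallest P-values per tested comparison, the longest run and the threshold. Some of these are given by library, and others only by mean and SD or by their gap. Others named were chosen after their values were seen. Lists of nicotine synthesis, ERF and jasmonate genes were not analysed here, since 0 identifiers matched a gene name.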

Additional observations from a re-analysis of the deposited data

Results flagged for a closer look

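In the members named by rule and in their summed level, a library was looked for that lay far outside the others of its genotype, in the genotypes with 4 or 5 libraries. Of 60 such groups, 10 held one, and 7 of the 10 were K326 replicate 2. Chance gives about 1 in 20 for a single group, but these groups share libraries and vary together, so the number is no measure against chance. That library stood far above the other K326 libraries in Ntab08g023550-1.1 (1075 CPM), Ntab21g008710-1.1 (834 CPM), Ntab05g006320-1.1 (624.9 CPM), Ntab04g010910-1.1 (1521 CPM), Ntab16g014330-1.1 (545 CPM) and Ntab12g001120-1.1 (1936 CPM), and in the summed level of the 38 members (17121 CPM). It was also the deepest library, with 71.8 M counts, and the part of depth in these values was not tested. Elsewhere, nic1/nic2/myc2a replicate 2 was low in Ntab24g000460-1.1 (67.0 CPM) and in Ntab19g008310-1.1 (49.0 CPM), and myc2a replicate 3 was high in Ntab17g017770-1.1 (143 CPM).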

How the results depend on the processing

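The count of members called in myc2a against K326 was 0 in 23 of 24 alternatives (0 to 0 leaving out one library) and 2 with DESeq2. It was 0 in all 24 for nic1/nic2/myc2a against nic1/nic2 and in all 23 for the interaction, for which a fit of only the groups compared was not run because it needs all groups. The replicate block gave 0 calls in each. The labels do not say whether same-numbered libraries share more than a number. Correlations of their deviations ran from -0.29 to 0.33. The number of positive gaps was 38 to 104 leaving out one library, with 104 without myc2a replicate 1 and 90 without nic1/nic2/myc2a replicate 3, and 36 to 56 under other minimums, pseudocounts, ranges and scaling. Of the 38 members, 34 to 38 stayed among the 100 largest gaps, with 34 on TMM-scaled CPM and 36 with a minimum of 10 CPM. Leaving out one library, 37 to 38 stayed. Leaving out a library cannot narrow a gap, so the numbers of gaps and members left in those settings are no measure of stability. The median log2 fold change stayed between -2.93 and -2.35 for nic1/nic2 against K326 and between -2.06 and -1.77 for nic1/nic2/myc2a against myc2a. The 3 members named for each tested comparison kept their direction in that comparison in all alternatives run. Among other members, Ntab09g014190-1.1 went from -0.09 to 0.15 in myc2a against K326 without K326 replicate 2, and 32 negative values became 30. For levels under 1 CPM, depth limits what can be told apart.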
